A study of Homo sapiens with 16 samples.

Results

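The genes described here make, lengthen, desaturate, take up, store and release fatty acids in HepG2 cells, a human hepatoma line widely used as a liver cell model. They were a list of 38 symbols, chosen by function with earlier results of these data known, and each was read through the array's probe sets. A probe set naming the gene alone was found for 31 of the 38 genes, 55 probe sets in all among 22283 on the array. Of these 31 genes, 29 were bright enough to be tested, among 8102 tested genes. ACSS2, MCAT, ACSL3, GPAM, THRSP, ELOVL1 and FADS1 were not analysed here, the last pair because their probe sets are also assigned to a microRNA gene. CD36, a fatty acid uptake receptor, and LIPE, the hormone-sensitive lipase, were on the array but too dim to test. The group mean signal of CD36 lay between 143 and 173 on its brightest probe set, and that of LIPE between 134 and 241. The threshold was a signal of 188.

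Every culture in the study had been given an adenovirus, carrying either LacZ, which encodes the bacterial enzyme beta-galactosidase and served as the control, or GPI-PLD, a phospholipase that cuts glycosylphosphatidylinositol anchors from membrane proteins. Cells were kept for 6 h or 12 h, and each of the 4 combinations of virus and time had 4 arrays, so that 16 arrays were compared. The labels name a single cell line and do not state the promoter of the vectors, the dose of virus or whether replicate arrays were independent cultures, and the p-values therefore reflect only the spread between arrays, which may be technical. No cultures without virus were analysed here. The design asks which transcripts differ between the viruses at each time, and the time comparison within each virus follows from it.

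Array medians ran from 304.5 to 377.6. GPLD1, the transcript of the GPI-PLD enzyme, differed by 0.02 ± 0.32 at 6 h and 0.12 ± 0.32 at 12 h (log2, GPI-PLD minus LacZ, ± SE) on its brightest probe set, whose probes can bind related transcripts. A dimmer probe set above the threshold gave -0.22 ± 0.30 and 0.18 ± 0.30. The labels do not say which part of that transcript the vector carried, and the groups are therefore called by their labels. The hepatocyte markers on the array, 7 of 8 listed, had a summed signal of 273131 to 342284 per array, and all 7 were tested. Of the adipocyte markers, 0 of 5 were tested, and their summed signal was 196 to 541. GPI-PLD 12 h arrays correlated with each other at 0.942 to 0.945 on average, and arrays of the other groups at 0.954 to 0.966.

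Fatty acid synthesis starts when ATP citrate lyase and the acetyl-CoA carboxylases supply acetyl-CoA and malonyl-CoA, from which fatty acid synthase builds palmitate. Elongases and desaturases then modify the chain, acyl-CoA synthetases activate it, and acyltransferases join it to glycerol as triglyceride. Triglyceride is held in cytosolic droplets coated by perilipins, from which lipases release it. The liver uses the same store to supply lipoprotein particles and mitochondria.

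The promoters of PLIN2 and ELOVL6 are shown because PLIN2 was called higher at 12 h under both viruses and ELOVL6 was the 1 gene of the list called lower. Each is the 250 bases before the start used in the RefSeq promoter table, build GRCh38.p14, 5′ to 3′ on the gene's own strand. The PLIN2 window adjoins the annotated gene (chr9:19108388-19127492), while the ELOVL6 window lies inside the annotated gene (chr4:110045846-110199202). The PLIN2 window is chr9:19127493-19127742 and that of ELOVL6 chr4:110198616-110198865, both on the minus strand. Capitals mark a match to the E-box letters CACGTG, a sequence bound by USF and other helix-loop-helix factors.
PLIN2: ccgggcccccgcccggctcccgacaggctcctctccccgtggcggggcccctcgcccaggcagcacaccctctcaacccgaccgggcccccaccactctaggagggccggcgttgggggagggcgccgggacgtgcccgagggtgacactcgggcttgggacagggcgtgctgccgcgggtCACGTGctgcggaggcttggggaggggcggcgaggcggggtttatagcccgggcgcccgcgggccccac
ELOVL6: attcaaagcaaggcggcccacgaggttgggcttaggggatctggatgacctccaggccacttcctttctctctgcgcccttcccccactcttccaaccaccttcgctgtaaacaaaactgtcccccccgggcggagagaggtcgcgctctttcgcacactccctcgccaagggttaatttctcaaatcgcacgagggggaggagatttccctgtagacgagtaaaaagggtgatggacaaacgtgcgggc
In PLIN2 the E-box lay 69 to 64 bases before the start. Among 27305 promoters of the same length 6.49% held these letters on either strand, and among the 33 listed genes with a promoter in the table, ELOVL5 and PLIN2 did. A sterol regulatory element, TCACNCCAC, was found in PNPLA2 alone among them and in 0.875% of all promoters. A C/EBP-ATF element, TGATGNAA, was found in SLC27A5 alone and in 3.19% of all. The ELOVL6 window held none of the 3 sequences. These matches are letters in a window and were not linked to the signals.

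PLIN2, which encodes the perilipin that coats lipid droplets in hepatocytes, was higher at 12 h than at 6 h under both viruses. All values below are MAS5 signals, on a linear scale, unless given as log2 differences. In LacZ cells PLIN2 read 8275.8, 8538.5, 10438.4 and 9081.7 on the 6 h arrays and 13102, 14364.7, 12002.3 and 15388.9 on the 12 h arrays. In GPI-PLD cells it read 8167.7, 8374.3, 8362.3 and 8841.4 at 6 h and 15457.3, 14766, 14748.2 and 14678.8 at 12 h. Every 12 h array stood above every 6 h array, under either virus. PLIN2 rose 1.51-fold in LacZ cells (log2 0.59 ± 0.08, SE, limma adjusted p = 4.03e-05). In GPI-PLD cells it rose 1.76-fold (log2 0.82 ± 0.08, adjusted p = 3.51e-07). Fold changes throughout were taken on signal + 63, which lowers those of dim genes. In a culture, fewer cells of a kind and less RNA per cell cannot be told apart.

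The rise in PLIN2 was not distinguishable between the viruses. Its difference between the time effects was 0.23 ± 0.12 (log2, GPI-PLD minus LacZ, adjusted p = 0.688), with a 95% interval of -0.02 to 0.47. Between viruses PLIN2 differed by -0.10 ± 0.08 at 6 h and 0.13 ± 0.08 at 12 h. A further PLIN2 probe set, of a kind whose probes can bind related transcripts, was dim, with group means of 441, 231, 341 and 220 (LacZ 6 h, GPI-PLD 6 h, LacZ 12 h and GPI-PLD 12 h). It gave the opposite sign with wide errors, -0.28 ± 0.47 with time in LacZ and -0.13 ± 0.47 in GPI-PLD cells. Averaging both probe sets took the PLIN2 time difference to 0.16 in LacZ (adjusted p = 0.786) and 0.35 in GPI-PLD cells (adjusted p = 0.40), neither of them called. The summed endothelial marker signal lay between 256 and 712 on LacZ 6 h and between 706 and 881 on LacZ 12 h arrays. It lay between 210 and 650 on GPI-PLD 6 h and between 552 and 892 on GPI-PLD 12 h arrays. Of these 5 markers 1 was bright enough to test. The summed leukocyte marker signal lay between 6475 and 12483 on LacZ 6 h and between 10527 and 14281 on LacZ 12 h arrays. Under GPI-PLD it lay between 8884 and 11417 at 6 h and between 9193 and 13092 at 12 h. Its brightest marker, LYZ, had group means of 8673 to 11455. Fibroblast sums were 1451 to 2547 over all arrays and overlapped between the times under both viruses. The part of these markers in the PLIN2 result was not tested.

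**Figure D1:**
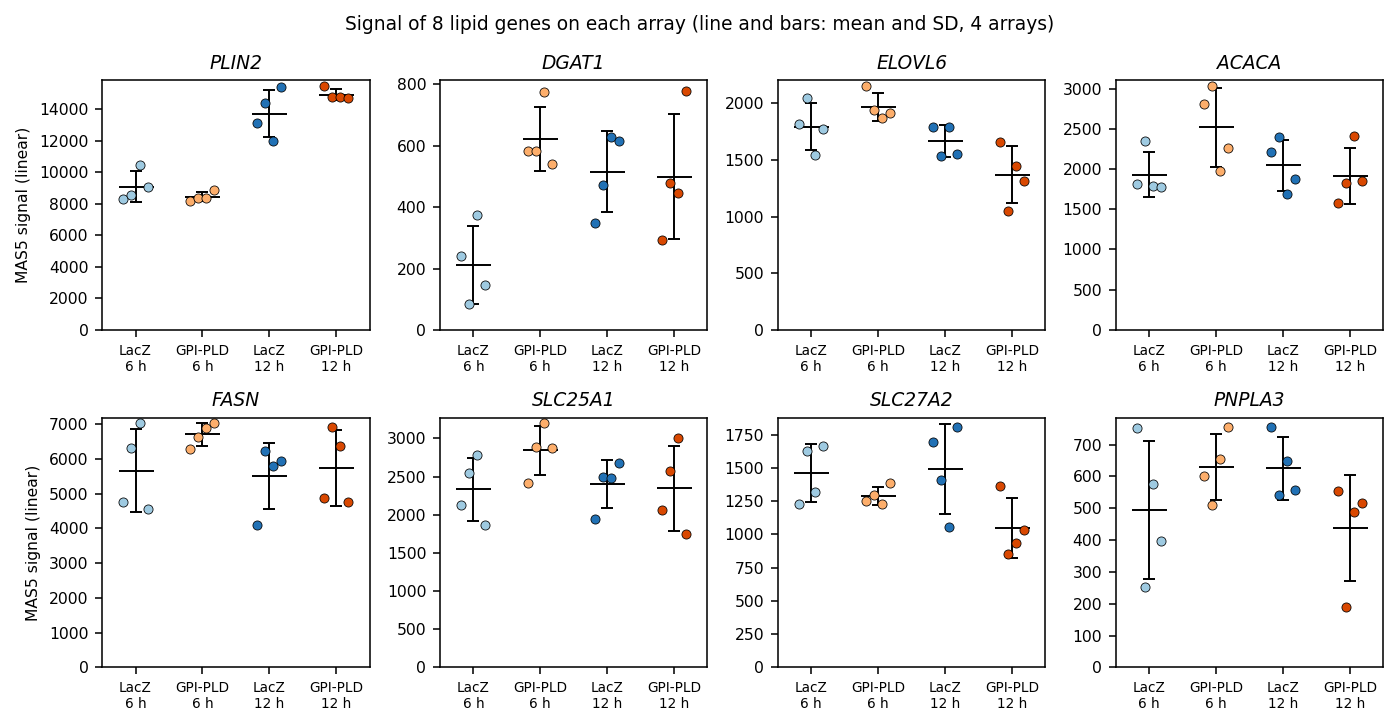
MAS5 signal (linear axis from 0) of PLIN2, DGAT1, ELOVL6, ACACA, FASN, SLC25A1, SLC27A2 and PNPLA3 on each of the 16 arrays, with points for arrays, a line for the group mean and bars for the SD of 4 arrays. PLIN2 separated the times under both viruses, DGAT1 was lowest in LacZ cells at 6 h (mean 211), and ELOVL6 was lowest in GPI-PLD cells at 12 h (mean 1370).

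DGAT1 encodes the enzyme that adds the last fatty acid to diacylglycerol to form triglyceride. Its LacZ 6 h arrays read 241.9, 83.1, 373.1 and 147, and the GPI-PLD 6 h arrays 583.7, 584.1, 774.4 and 541.4. The LacZ 12 h arrays read 347, 472.4, 628 and 615.5, and the GPI-PLD 12 h arrays 293, 479.8, 447.3 and 778.6. At 6 h the viruses did not overlap, while at 12 h the GPI-PLD arrays spanned the whole LacZ range. LacZ cells at 6 h were the low group, with 2 of their 4 arrays under the threshold signal of 188.

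With time DGAT1 rose 2.24-fold in LacZ cells (log2 1.16 ± 0.30, adjusted p = 0.0172), although the lowest 12 h array lay below the highest 6 h array. DGAT1 was no longer called when 1 of 4 arrays was left out, namely LacZ 6 h replicates 2 (adjusted p = 0.0695) or 4 (0.0513) or LacZ 12 h replicates 3 (0.0605) or 4 (0.0603). Its time difference in GPI-PLD cells was -0.34 ± 0.30. Between viruses it was 2.68-fold higher in GPI-PLD cells at 6 h (log2 1.42 ± 0.30), which did not pass over all genes (limma adjusted p = 0.328). At 12 h the virus difference of DGAT1 was -0.08 ± 0.30, with a 95% interval of -0.70 to 0.54. The 6 h and 12 h virus differences of DGAT1 differed by -1.50 ± 0.42 (adjusted p = 0.381). All of these comparisons for 6 h share the LacZ 6 h arrays, so they are not separate evidence. DGAT1 was read by 1 probe set.

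The other triglyceride, droplet and lipolysis genes were not called in any comparison. PNPLA3, a droplet-bound lipid hydrolase, read 750.7, 251.7, 576.1 and 395.6 on LacZ and 601.9, 508.5, 653.9 and 754.4 on GPI-PLD arrays at 6 h. At 12 h PNPLA3 read 756.1, 540.8, 649.1 and 558 on LacZ and 553.4, 189.8, 488.8 and 515 on GPI-PLD arrays. The viruses overlapped at both times, and a single array, GPI-PLD 12 h replicate 2, was far below the rest of its group. PNPLA3 differed by 0.39 ± 0.28 at 6 h and by -0.53 ± 0.28 at 12 h (adjusted p = 0.705), and without that array by -0.23 at 12 h. The change between these virus differences was -0.93 ± 0.39 (adjusted p = 0.579), and -0.63 without that array.

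PLIN3, a perilipin that moves onto forming droplets, had a time difference of -0.30 ± 0.12 in LacZ cells (adjusted p = 0.167) and -0.21 ± 0.12 in GPI-PLD cells. Its group means were 2650 and 2147 in LacZ cells at 6 h and 12 h. ABHD5, the coactivator of the main triglyceride lipase, read 560 and 737 in GPI-PLD cells at the same times, a log2 difference of 0.35 ± 0.19, and of 0.21 without GPI-PLD 12 h replicate 4. MGLL, which splits monoglycerides, had log2 differences of -0.11 to 0.11 in the virus and time comparisons, with group means of 505 to 571. PNPLA2, the main triglyceride lipase itself, was too variable to place on its brightest probe set, with signals from 600.4 to 3947.1 and an SE of 0.51. Its other probe set was under the threshold and of a kind whose probes can bind related transcripts. That one had group means of 103 (LacZ) and 190 (GPI-PLD) at 6 h, and 124 (LacZ) and 343 (GPI-PLD) at 12 h. Over the group of 7 genes, 6 were higher at 12 h under LacZ (median log2 difference 0.32) and 4 under GPI-PLD (median 0.11). The LacZ count was 5 under quantile normalization and 4 under 75th percentile scaling. With single arrays left out, the LacZ median was lowest, 0.06, without LacZ 6 h replicate 4 and highest, 0.55, without replicate 1 of that group, and the GPI-PLD median from -0.12 (without GPI-PLD 12 h replicate 2) to 0.26 (without its replicate 1), so that the latter had no settled direction.

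ELOVL6 encodes the elongase that extends palmitate by a 2-carbon unit towards stearate. Its LacZ arrays read 1819.6, 2046, 1544 and 1770.6 at 6 h and 1791.1, 1537.3, 1793.7 and 1554.5 at 12 h. Its GPI-PLD arrays read 2148.3, 1938.5, 1872.1 and 1914.8 at 6 h and 1658.4, 1052.4, 1449.5 and 1318.4 at 12 h. Every 12 h array of GPI-PLD cells lay below every 6 h array, while in LacZ cells the times overlapped. ELOVL6 fell with time in GPI-PLD cells, 1.43-fold (log2 -0.52 ± 0.12, adjusted p = 8.42e-03), and this call was made in all 27 alternative settings. In LacZ cells the ELOVL6 time difference was -0.10 ± 0.12, with a 95% interval of -0.36 to 0.16.

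The time effect on ELOVL6 was not shown to differ between the viruses (log2 -0.42 ± 0.18, adjusted p = 0.570). GPI-PLD minus LacZ was 0.13 ± 0.12 at 6 h and -0.29 ± 0.12 at 12 h (adjusted p = 0.675). The 12 h difference was -0.17 without GPI-PLD 12 h replicate 2. A dimmer ELOVL6 probe set, with group means of 496 to 687, gave -0.33 ± 0.21 with time in LacZ and -0.44 ± 0.21 in GPI-PLD cells, neither of them called.

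None of the other 8 elongation and desaturation genes was called. HACD3, a dehydratase of the elongation cycle, came nearest with time. It had group means of 3788 and 3210 in LacZ cells at 6 h and 12 h (log2 -0.24 ± 0.15) and 4070 and 3012 in GPI-PLD cells (-0.45 ± 0.15, adjusted p = 0.0731). HACD3 was called lower in GPI-PLD cells in 3 of the alternative settings, with array weights, without GPI-PLD 6 h replicate 4 and without GPI-PLD 12 h replicate 2. The HACD3 difference was -0.26 without GPI-PLD 12 h replicate 3. ELOVL2, an elongase of polyunsaturated chains, had a GPI-PLD time difference of -0.36 ± 0.14 (adjusted p = 0.128) and a LacZ one of -0.04 ± 0.14. A further ELOVL2 probe set above the threshold did not repeat the former. Its means at 6 h and 12 h were 1796 and 1784 in GPI-PLD and 1816 and 1976 in LacZ cells. HSD17B12 and TECR, the reductases of the cycle, differed with time by -0.20 ± 0.10 and -0.22 ± 0.17 in GPI-PLD cells.

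SCD, the desaturase that makes oleate, had group means of 14046 to 15078. Its virus difference was 0.06 ± 0.08 at 6 h and -0.09 ± 0.08 at 12 h. A further SCD probe set gave 0.30 ± 0.10 at 6 h, -0.20 ± 0.10 at 12 h and -0.51 ± 0.14 for the change between them (adjusted p = 0.507 over all probe sets). The remaining SCD probe sets gave 0.09 and 0.14 at 6 h and -0.23 and -0.12 at 12 h. FADS2, which starts the making of long polyunsaturated fatty acids, differed by 0.14 ± 0.16 at 6 h and -0.25 ± 0.16 at 12 h. ELOVL5 and FADS3, read at group means of 6002 to 6165 and 467 to 530, differed by at most 0.17 (log2) in any virus or time comparison on their brightest probe sets. A dimmer ELOVL5 probe set above the threshold had means of 349 (LacZ) and 372 (GPI-PLD) at 6 h. At 12 h that probe set had means of 398 (LacZ) and 451 (GPI-PLD). A further FADS3 probe set had group means of 457 to 532. Of the 9 genes of this group, 8 were higher in GPI-PLD cells at 6 h (median 0.09) and 2 at 12 h (median -0.09). At 12 h against 6 h 4 were higher under LacZ (median -0.02) and 1 under GPI-PLD (median -0.20). The LacZ count was 5 under quantile normalization and 2 under 75th percentile scaling. With single arrays left out, the 6 h virus median lay between 0.05 and 0.11, the 12 h one between -0.17 and -0.08 (1 to 2 higher) and the GPI-PLD time median between -0.22 and -0.16 (0 to 2 higher), while the LacZ time median took either sign.

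At 6 h 5 of the 6 synthesis genes had higher signal in GPI-PLD cells (median log2 difference 0.20), but 0 of them passed. ACACA, the carboxylase that makes the malonyl-CoA used in synthesis, read 1807.9, 2349.2, 1783.2 and 1777 on LacZ and 2809.2, 3029.9, 1973.2 and 2255.5 on GPI-PLD arrays at 6 h. At 12 h it read 2208, 2403.7, 1691.1 and 1881.1 on LacZ and 1571.7, 1827.8, 2405.7 and 1847.3 on GPI-PLD arrays. The 6 h groups overlapped through LacZ replicate 2, and the 12 h groups overlapped fully. ACACA differed between viruses by 0.36 ± 0.15 at 6 h (1.29-fold, adjusted p = 0.998) and by -0.10 ± 0.15 at 12 h. With time it differed by 0.08 ± 0.15 in LacZ and -0.38 ± 0.15 in GPI-PLD cells (adjusted p = 0.112), and the latter was called without GPI-PLD 12 h replicate 3 (-0.49, adjusted p = 0.0424).

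SLC25A1, the carrier that exports citrate from mitochondria, read 2126.6, 2547.9, 2785.7 and 1871.8 on LacZ and 2414.2, 2888.3, 3200.4 and 2878.5 on GPI-PLD arrays at 6 h. At 12 h it read 1950.6, 2488.9, 2476.9 and 2681.6 on LacZ and 2056, 2568.6, 3004.9 and 1753.8 on GPI-PLD arrays. The groups overlapped at both times. SLC25A1 differed by 0.29 ± 0.15 at 6 h (adjusted p = 0.998) and by -0.05 ± 0.15 at 12 h.

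FASN, the enzyme that builds palmitate, read 4769.5, 6303.5, 7030.5 and 4560.8 on LacZ and 6285, 6638.5, 6894.3 and 7030.6 on GPI-PLD arrays at 6 h. At 12 h it read 4098.9, 6223.9, 5784 and 5935.6 on LacZ and 4870.5, 6924.2, 6383 and 4763.7 on GPI-PLD arrays. The GPI-PLD 6 h arrays were the tightest group, with an SD of 328 against 1196 for LacZ 6 h, and the LacZ arrays reached as high. FASN differed by 0.26 ± 0.14 at 6 h, 0.06 ± 0.14 at 12 h and 0.16 ± 0.10 averaged over the times.

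ACLY, which cleaves citrate to acetyl-CoA, had group means of 11729 to 13113 and differed by 0.10 ± 0.07 at 6 h and -0.14 ± 0.07 at 12 h. ACACB, the carboxylase placed at mitochondria, differed by 0.13 ± 0.12 and -0.19 ± 0.12 at the same times, and its dimmer probe set that passed the threshold by 0.39 ± 0.32 and 0.49 ± 0.32. MLYCD, which breaks malonyl-CoA down again, was the 1 gene of the group on the other side at 6 h, at -0.05 ± 0.21, and stood at 0.39 ± 0.21 at 12 h. MLYCD had group means of 755 and 489 in LacZ cells at 6 h and 12 h (log2 -0.56 ± 0.21, adjusted p = 0.108) and 724 and 673 in GPI-PLD cells. With time 3 of the 6 synthesis genes were higher in LacZ cells (2 under 75th percentile scaling) and 0 of 6 in GPI-PLD cells, where the median was -0.27 (-0.34 to -0.18, with 0 or 1 higher, when single arrays were left out) and 0 were called.

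**Figure D2:**
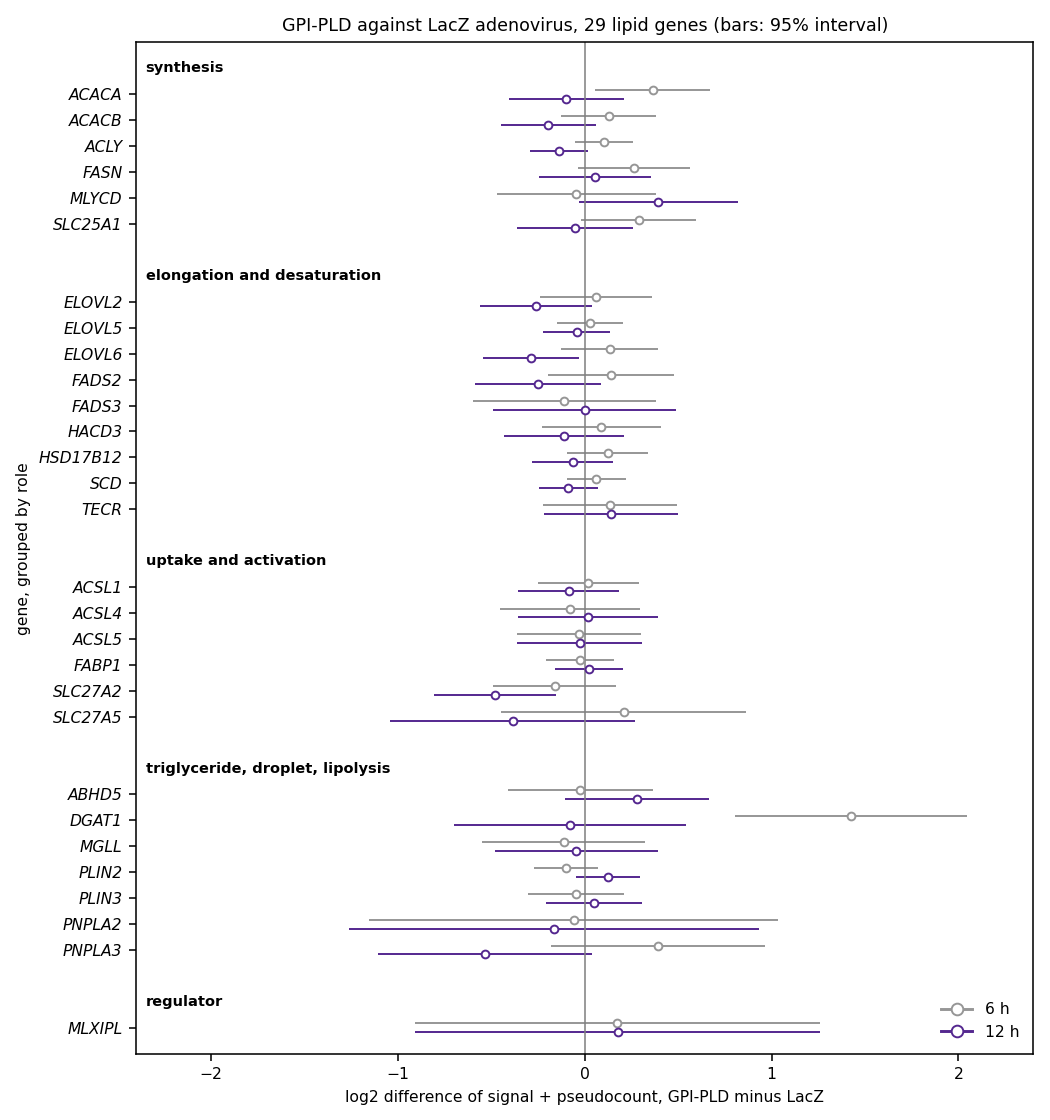
Log2 difference, GPI-PLD minus LacZ, of signal + 63 for the 29 tested genes by role, at 6 h (grey) and 12 h (purple), as points with 95% intervals. DGAT1 at 6 h (1.42) stands apart from the other genes, and no gene had an adjusted p under 0.05.

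To show the arrays behind these counts, each gene's deviation from its own mean over the 16 arrays was averaged by role. For synthesis genes the GPI-PLD 6 h arrays stood between 0.13 and 0.23 (log2), above all LacZ 6 h arrays, which stood between -0.07 and 0.07. The LacZ 12 h arrays lay between -0.13 and -0.03, and the GPI-PLD 12 h arrays were spread from -0.24 to 0.17. Among the triglyceride and droplet genes LacZ 6 h replicate 4 was lowest at -0.47, followed by replicate 2 of that group at -0.25, the same arrays in which DGAT1, a gene of this group, read under 188. In the roles other than synthesis the viruses overlapped at 6 h, and no such average of all tested genes was made for comparison. The genes averaged share the same arrays, so these are descriptions of 16 arrays.

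**Figure D3:**
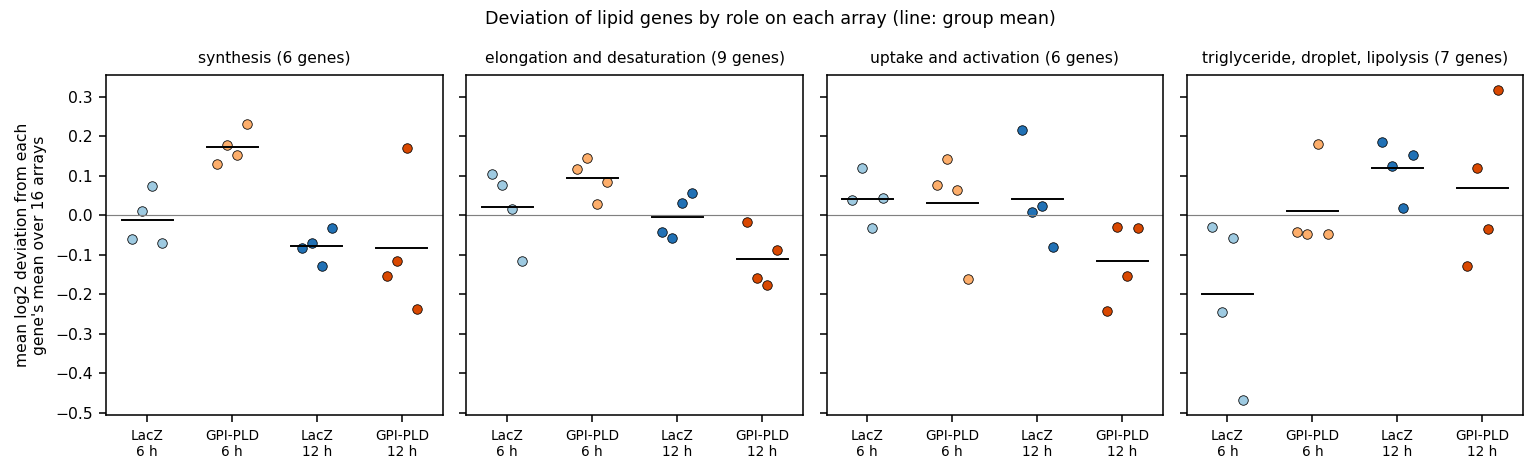
Mean log2 deviation of the genes of each role from their means over 16 arrays, one point per array, with a line at the group mean. Synthesis genes stood at 0.13 to 0.23 on the GPI-PLD 6 h arrays, above all 8 LacZ arrays, and at -0.24 to 0.17 on the GPI-PLD 12 h arrays. In the other roles the viruses overlapped at 6 h. The lowest point of the triglyceride and droplet genes was LacZ 6 h replicate 4 (-0.47).

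Among the uptake and activation genes 0 of 6 were called in any comparison. SLC27A2, a fatty acid transport protein with very long chain acyl-CoA synthetase activity, read 1230.5, 1623.9, 1317 and 1666.5 on LacZ and 1250.2, 1296.2, 1228.9 and 1384.7 on GPI-PLD arrays at 6 h. At 12 h it read 1693.1, 1410.3, 1056.3 and 1808.6 on LacZ and 1366.1, 850.2, 937.2 and 1035.9 on GPI-PLD arrays. The GPI-PLD arrays were lower at 12 h apart from replicate 1, which overlapped the LacZ range. SLC27A2 differed by -0.48 ± 0.16 at 12 h (1.39-fold lower, adjusted p = 0.497), by -0.16 ± 0.16 at 6 h and by -0.32 ± 0.11 averaged over the times (adjusted p = 0.997). Its other probe set did not repeat this, at -0.10 ± 0.12 at 12 h and 0.02 ± 0.09 averaged.

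SLC27A5, which activates bile acids and very long chain fatty acids, had group means of 544 (6 h) and 436 (12 h) for LacZ, and 617 (6 h) and 338 (12 h) for GPI-PLD. The GPI-PLD time difference of SLC27A5 was -0.82 ± 0.32 (adjusted p = 0.110), and -0.49 (adjusted p = 0.348) without GPI-PLD 12 h replicate 1, which read 125.8 against 384.6 or more on the rest of its group. FABP1, the abundant fatty acid binding protein of liver, had group means of 21447 to 22761 and virus differences of -0.03 ± 0.09 and 0.02 ± 0.09. The acyl-CoA synthetases ACSL1, ACSL4 and ACSL5 differed between viruses by -0.09 to 0.02 and with time by -0.15 to 0.22. MLXIPL, which encodes the glucose-responsive regulator ChREBP, differed by 0.17 ± 0.52 at 6 h and 0.18 ± 0.52 at 12 h. Its 95% interval spanned more than 1 log2 unit on either side of these values, so a change of that size was not detectable. MLXIPL read 70.2 on LacZ 12 h replicate 3 and 79.2 on GPI-PLD 12 h replicate 4, far below the rest of each group. With single arrays left out, its 12 h virus difference ran from -0.36 to 0.74.

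Across the 29 genes limma called 0 in each virus comparison at an adjusted p under 0.05. The fit without trend and robust variance also called 0 of them. Over all 8102 genes 0% were called at 6 h, at 12 h and for the averaged virus effect, and 0.0123%, 1 gene, for the difference between the times. At an unadjusted p under 0.05 the count at 6 h was 2 of 29 genes (DGAT1 and ACACA, 6.90%, against 4.64% of all genes). At 12 h it was 2 (SLC27A2 and ELOVL6, 6.90% against 7.21%), and for the average 2 (DGAT1 and SLC27A2, 6.90% against 4.2%). For the difference between the times it was 5 (DGAT1, ELOVL6, PNPLA3, ACLY and ACACA, 17.2% against 7.53%), and the comparisons share arrays. The middle gene of the 29 had a 95% interval of ±0.32 log2 units at 1 time.

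At 6 h 18 of 29 genes were higher in GPI-PLD cells and the median of the log2 differences was 0.06, where the median of all genes was 0.00. At 12 h 10 of 29 were higher, with a median of -0.06 against 0.01. With single arrays left out, the 6 h median lay between 0.03 (without LacZ 6 h replicate 4) and 0.10 (without LacZ 6 h replicate 1), with 18 to 21 higher. The 12 h median lay between -0.09 (without LacZ 12 h replicate 4) and -0.02 (without GPI-PLD 12 h replicate 1), with 6 higher without GPI-PLD 12 h replicate 2 and 13 without its replicate 1. The averaged effect had 11 of 29 higher and a median of -0.01, but 15 higher and a median just above 0 when either LacZ 6 h replicate 1 or else GPI-PLD 12 h replicate 1 was left out, so that it had no settled direction. The difference between the times had 11 of 29 above 0 and a median of -0.15, with -1.50 for DGAT1 and 0.44 for MLYCD at its ends. That count was 7 without GPI-PLD 12 h replicate 2 and also 7 without LacZ 6 h replicate 1, and the median lay between -0.19 and -0.14 with single arrays left out. The median was -0.11 under 75th percentile scaling. With the probe sets of each gene averaged it was -0.08, with 14 of 29 above 0.

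With time in LacZ cells 2 of 29 genes rose (PLIN2 and DGAT1, 6.90%) and 0 fell, against 3.64% of all genes higher and 3.25% lower. At an unadjusted p under 0.05 there were 4, with MLYCD and PLIN3 added, which is 13.8% against 20.2% of all genes. In GPI-PLD cells 1 rose (PLIN2, 3.45%) and 1 fell (ELOVL6, 3.45%), against 4.6% of all genes higher and 5.07% lower. At an unadjusted p under 0.05 there were 8, with HACD3, ACACB, ACACA, SLC27A5, ELOVL2 and ACLY added, which is 27.6% against 22.8%. All of those added were lower at 12 h on the probe set used. Further probe sets above the threshold had GPI-PLD means at 6 h and 12 h of 1796 and 1784 (ELOVL2) and 464 and 472 (ACACB). For ACLY they had 4035 and 4199, and 7255 and 6433.5. The shares of called genes were thus near those of all genes, at counts of 1 or 2.

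The median time difference of the 29 genes was 0.04 in LacZ cells, with 17 higher, and -0.20 in GPI-PLD cells, with 8 higher. All genes had medians of 0.01 in both. The LacZ median was -0.01, with 10 of 29 higher, when arrays were scaled to their 75th percentile, and it was just under 0 without LacZ 6 h replicate 4, so that it had no settled direction. The GPI-PLD median was -0.19 under quantile normalization and -0.21 under 75th percentile scaling, and -0.22 to -0.15 with single arrays left out. It was -0.12, with 9 of 29 higher, when the probe sets of each gene were averaged.

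**Figure D4:**
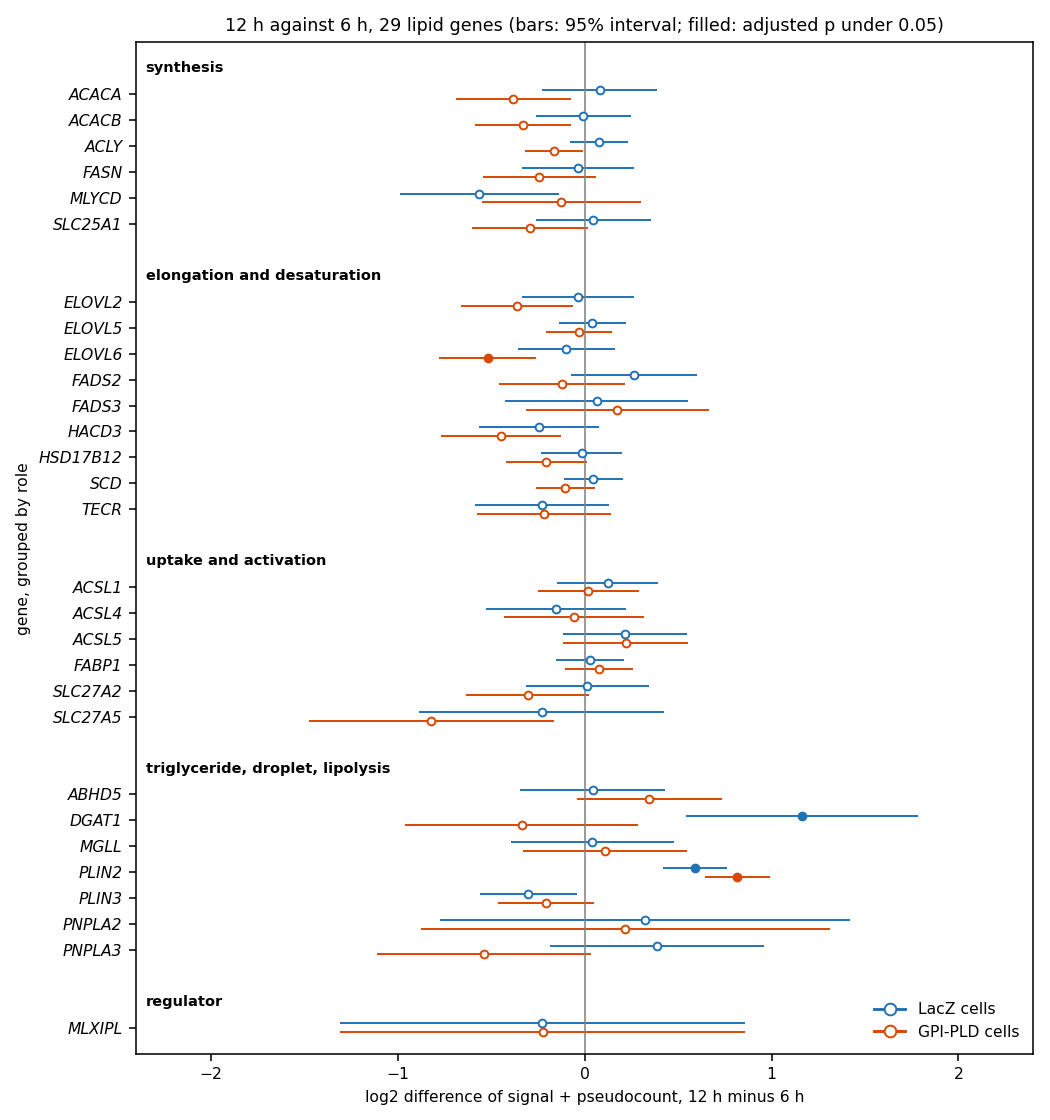
Log2 difference, 12 h minus 6 h, of signal + 63 for the 29 tested genes by role, in LacZ (blue) and GPI-PLD cells (orange), as points with 95% intervals, filled where the adjusted p was under 0.05. PLIN2 is filled in both (0.59 and 0.82), DGAT1 in LacZ cells (1.16) and ELOVL6 in GPI-PLD cells (-0.52).

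Another 65 genes of the same pathways were listed, including acyltransferases, lipins, other perilipins and the sterol and nuclear receptor regulators, and 39 of them were tested. In each of the virus comparisons limma called 0 of the 39, with 2 at an unadjusted p under 0.05 at 6 h, 2 at 12 h, 3 for the average and 1 for the difference between the times. Those are 5.13%, 5.13%, 7.69% and 2.56%, against 4.64%, 7.21%, 4.2% and 7.53% of all genes. With time 3 rose in LacZ cells (7.69%, against 3.64% of all genes). They were PRKAB2, a subunit of the kinase AMPK that inhibits the acetyl-CoA carboxylases (log2 0.76 ± 0.15, adjusted p = 0.00251), the nuclear receptor NR0B2 (0.41 ± 0.10, 0.0140) and PPARG, a nuclear receptor that activates lipid storage genes (0.67 ± 0.20, 0.0465). INSIG2, which holds the SREBP precursors in the endoplasmic reticulum (-0.56 ± 0.10, 0.00100), and the fatty acid binding protein gene FABP5 (-0.37 ± 0.09, 0.0163) fell. That is 5.13%, against 3.25% of all genes. In GPI-PLD cells PRKAB2 (0.72 ± 0.15, 0.00288) and NR0B2 (0.36 ± 0.10, 0.0232) rose and 0 of the 39 fell. That is 5.13% higher, against 4.6% of all genes higher and 5.07% lower. These shares rest on small counts.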

How the data were processed

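The authors deposited MAS5 signals of 16 Affymetrix arrays, which are intensity values on a linear scale, per the submitters' processing notes, made from 10 microgram of RNA each per the labels. The scanner and scaling steps are not given in the sources used here. The mean signal after trimming 2% at each end was 1000.35 to 1000.39 on every array, so the deposited values were already on a common scale. The members and gene lists were chosen with earlier results of these data known. Replicates were numbered in deposited order.

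A pseudocount of 63, the 20th percentile of signals over all arrays, was added before taking log2. A gene was represented by its brightest probe set naming that gene alone and entered the tests when this probe set's mean was at or above the 40th percentile (signal 188). In R 4.3.3, limma 3.58.1 and statmod 1.5.0 were used to fit 4 group means by lmFit, contrasts.fit and eBayes (trend and robust), with 12 residual degrees of freedom. The number of arrays limits the precision. P-values were adjusted by Benjamini-Hochberg over 8102 genes within each of 6 comparisons, and a gene was called at an adjusted p under 0.05. Errors after log2 differences are SE, errors after signals SD. The steps were tested on simulated data.

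All array values were given for genes called in any comparison and for the 3 with the smallest p in each virus comparison. Alternatives were 2 normalizations, 2 pseudocounts, 2 filters, 2 ways of treating probe sets, 3 other fits and each array left out. Tables and plots were made with Python 3.11.15, pandas 2.3.3 and matplotlib 3.10.9.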

Additional observations from a re-analysis of the deposited data

Results flagged for a closer look

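In 12 of 116 sets of 4 arrays (29 genes in 4 groups) the highest or lowest array stood apart from the other 3 by Dixon's criterion, where chance gives about 1 set in 20. GPI-PLD 12 h replicate 2 was that array for ACLY (signal 9962, nearest array 12149), HSD17B12 (8051.4, nearest 6130.7), PLIN3 (2946.3, nearest 2062.9) and PNPLA3 (189.8, nearest 488.8). In the same group ELOVL5 stood apart on replicate 3 (6949.7, nearest 5748.4), SLC27A5 on replicate 1 (125.8, nearest 384.6), PLIN2 on replicate 1 (15457.3, nearest 14766) and ABHD5 on replicate 4 (979.7, nearest 678.4). The GPI-PLD 12 h arrays therefore gave 8 of the 12 sets.

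In LacZ cells ACACA stood apart on 6 h replicate 2 (2349.2, nearest 1807.9), SLC27A5 on 6 h replicate 4 (243.4, nearest 603.8) and ACSL4 on 12 h replicate 1 (2427.2, nearest 1728.4). HACD3 stood apart on GPI-PLD 6 h replicate 4 (3088.5, nearest 4280).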

How the results depend on the processing

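None of the 16 gene differences changed sign in the 25 to 27 alternatives that gave a value for it, and no alternative called a member between the viruses. Many of these alternatives could not change the sign, because they leave the estimate as it is. They include the filters, the fit without trend and robust variance and leaving out arrays of groups not compared. The dimmer probe sets were not read alone here, and that of PLIN2 gave the opposite sign with time. With time in LacZ cells 2 members were called. The count was 1 with the filter at the 60th percentile, which did not test DGAT1, and 1 with probe sets averaged, which lost PLIN2. It was 1 to 2 with single arrays left out. In GPI-PLD cells the count of 2 became 1 with probe sets averaged, where PLIN2 was lost. It became 3 with array weights and without GPI-PLD 6 h replicate 4 or GPI-PLD 12 h replicate 2 (HACD3 added), and without GPI-PLD 12 h replicate 3 (ACACA added). ELOVL6 kept its call there in all 27, at -0.61 to -0.41 (adjusted p 0.00337 to 0.0344). The adjusted p of DGAT1 ran from 0.00408 to 0.0695 with time in LacZ cells and from 0.0851 to 0.998 between viruses at 6 h. No paired analysis was possible because the labels give no replicate numbers. With 4 arrays a group, differences under about 0.3 log2 units were within the interval of a typical member.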
